A study of Mus musculus with 6 samples.

Results

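Ptgs2, Lcn2, Csf1, Tnfsf9 and Lif encode an inflammatory enzyme and secreted or membrane-bound signals of myeloid cells, and were taken by name from an expression table of 1228 genes, in which all 5 were found. RNA was sequenced from 6 libraries of Bv2 cells, an immortalised mouse microglial line labelled wild type, grown in DMEM with serum. The 3 OGD/R libraries came from cells given oxygen and glucose deprivation, a culture model of ischemia, with 30 min in nitrogen, 2 h at 1% oxygen in medium without glucose or serum, and 24 h of reperfusion in standard medium. The 3 control libraries came from cells labelled as control. The protocol also mentions an infection 72 h earlier without saying to which cells it applies, and whether control cells had their medium changed is not stated, so these cannot be told apart from OGD/R. Bv2 is 1 line, and the labels do not say whether the replicates were separate cultures; p-values therefore reflect the spread of these libraries, which may be technical. The label of cytokines and inflammatory enzymes fits 4 of the 5 genes; Lcn2 encodes a secreted carrier protein that is neither.

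Prostaglandins are lipid mediators made from arachidonic acid, and cyclooxygenase-2, the product of Ptgs2, is the inducible enzyme that starts their synthesis in activated macrophages and microglia. Colony-stimulating factor 1 (Csf1) keeps microglia alive and dividing through its receptor, Tnfsf9 (4-1BB ligand) is a membrane ligand of the tumour necrosis factor superfamily, and Lif belongs to the interleukin-6 family, which signals through gp130 and STAT3. Lipocalin 2 (Lcn2) binds iron-loaded bacterial siderophores and is released by activated glia and neutrophils. Several of these genes are known targets of NF-kB and C/EBP factors, and the mRNAs of many cytokines carry AU-rich elements that shorten their life.

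The table is not a full transcriptome. Its 605 genes with a higher OGD/R mean and 623 with a lower one all differ by about 2 times or more, with no log2 ratio of group means between -0.97 and 1.03, so they were chosen for their difference in these libraries. Values are FPKM (fragments scaled to gene length and library size), so levels of different genes can be compared per unit of length. Among low values, those under 15 counted units, 97.3% to 100% per library corresponded to whole units, at library sizes of 8016000 to 8656000 units for OGD/R and 7614000 to 8248000 units for control. Genes with a mean of at least 1 FPKM over the 6 libraries, 852 in all, were tested with limma on log2(FPKM + 1). Of the microglial and macrophage markers 2 of 20 were in the table, Cx3cr1 and P2ry12, with summed levels of 2.81 to 3.17 FPKM in OGD/R and 0.79 to 1.08 FPKM in control, so the label could be checked on these alone. Of other cell types, Vwf, Tubb3 and Cspg4 were in the table, at sums of up to 1.74 FPKM per list in OGD/R and 4.4 FPKM in control.

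Ptgs2, Lcn2, Csf1 and Tnfsf9 were lower after OGD/R, and Lif was higher but close to the detection floor. Fold differences of the group means were 32.3-fold for Lcn2, 3.25-fold for Ptgs2, 2.74-fold for Tnfsf9 and 2.12-fold for Csf1, all lower in OGD/R. In limma 4 of the 4 members tested fell at an adjusted p under 0.05, in a table where 97.3% of tested genes were called, 50.7% lower and 46.6% higher. Because the table was picked for such differences, these counts are read only as a description. The same holds for the limma p-values and intervals given here and below. They come from genes picked in the same libraries, and the adjustment covers only those genes, not a full transcriptome. In 4 of 5 members the 3 OGD/R values lay below the 3 control values, as in 46.5% of the genes of the table, and Lif lay above, as in 48.4%. For each member alone, the exact permutation test of 3 against 3 libraries gave p = 0.1 (two-sided), the smallest it allows, and the same after Benjamini-Hochberg adjustment over the 5 members. In bulk RNA, fewer cells that express a gene and less of its RNA per cell cannot be told apart.

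**Figure D1:**
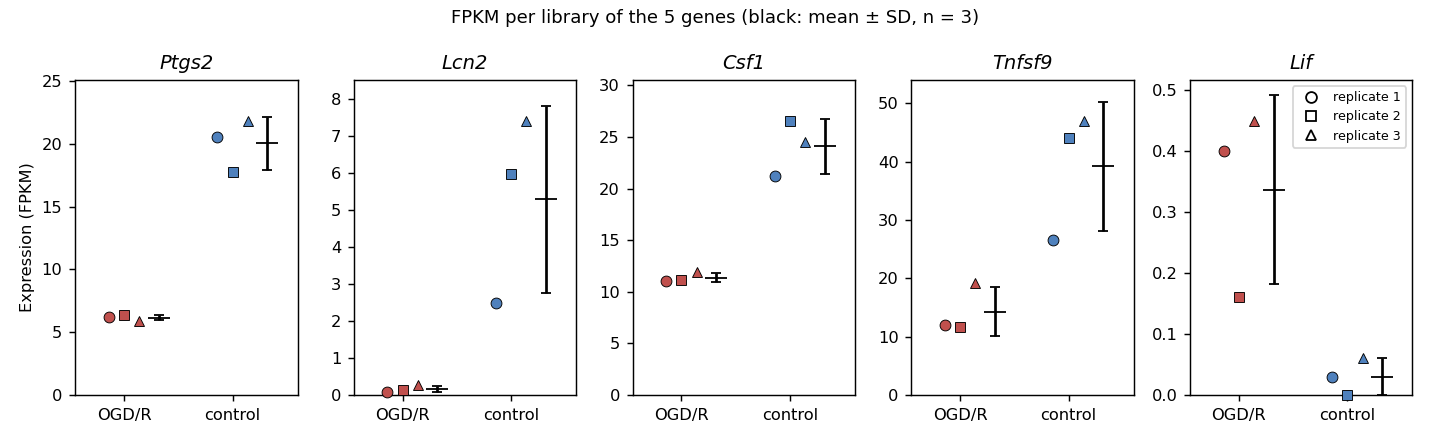
FPKM (linear axes from 0) of Ptgs2, Lcn2, Csf1, Tnfsf9 and Lif in each OGD/R and control library, with symbols for replicates and black bars for the mean ± SD (n = 3). The groups do not overlap in any of the 5 genes, and Lif stays at or below 0.45 FPKM.

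Ptgs2, the enzyme of the group, had 6.23, 6.34 and 5.92 FPKM in the OGD/R libraries, against 20.59, 17.74 and 21.84 FPKM in the control libraries. All 3 OGD/R values were close together and no control library was low. The mean was 6.16 ± 0.218 FPKM in OGD/R and 20.1 ± 2.10 FPKM in control (SD, n = 3 each), a log2 fold change of -1.55 ± 0.11 (SE; limma adjusted p = 7.87e-05, 95% interval -1.81 to -1.29). These values rested on 229 to 245 counted units per OGD/R library and 670 to 762 per control library. The spread over libraries was 3.53% of the mean in OGD/R, where counting alone gives 6.50%, and 10.5% in control, where counting gives 3.73%. The gene, ENSMUSG00000032487, spans chr1:150100031-150108227 of GRCm38, plus strand.

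Of 35 listed prostaglandin and leukotriene genes 4 were in the table and tested, and 3 of them, Ptgs2 included, fell and 1 rose. Ptgir, the receptor for prostacyclin, which is made from the product of cyclooxygenases, had 20.99, 21.93 and 21.43 FPKM in OGD/R and 56.15, 61.11 and 56.55 FPKM in control, with a log2 fold change of -1.39 ± 0.09 (limma adjusted p = 7.62e-05). The ratio of Ptgs2 to Ptgir was 0.287 ± 0.0104 in OGD/R and 0.348 ± 0.0507 in control (SD, n = 3). An exact permutation test gave p = 0.2 (two-sided), where the smallest p it allows is 0.1. No difference could thus pass 0.05, and the test does not show whether the ratio changed. Alox15, a lipoxygenase of the same fatty acid, fell to 0.760 ± 0.132 FPKM in OGD/R, against 1.94 ± 0.0379 FPKM in control. Cysltr1, a receptor for cysteinyl leukotrienes, went the other way, at 3.95 ± 0.0987 FPKM in OGD/R and 1.73 ± 0.150 FPKM in control (log2 fold change 0.86 ± 0.10, limma adjusted p = 0.000279).

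Among inflammatory enzymes other than Ptgs2, 5 of the 18 further listed genes were in the table and 4 were tested, of which 3 fell and 1 rose. The shares over all tested genes were 50.7% lower and 46.6% higher. Mmp12, the macrophage elastase, averaged 1.45 ± 0.211 FPKM in OGD/R and 4.20 ± 1.59 FPKM in control (SD, n = 3). Nos2, which encodes inducible nitric oxide synthase, averaged 0.547 ± 0.323 FPKM in OGD/R and 1.97 ± 0.516 FPKM in control (log2 fold change -0.95 ± 0.21, limma adjusted p = 0.00425). Arg1, the arginase that uses the same substrate as Nos2, averaged 2.21 ± 0.680 FPKM in OGD/R and 0.840 ± 0.219 FPKM in control (log2 fold change 0.79 ± 0.19, limma adjusted p = 0.00618). The 2 enzymes of arginine thus changed in opposite directions, both at low levels. Mmp13 fell with -0.62 ± 0.21. Mmp9 was below the expression minimum, and its OGD/R values all lay above its control values.

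Lcn2 showed the widest gap of the 5 genes. It had 0.09, 0.14 and 0.26 FPKM in the OGD/R libraries, against 2.49, 5.96 and 7.40 FPKM in the control libraries. All OGD/R values were near the floor, and control replicate 1 was the lowest control value, still above every OGD/R value. The mean was 0.163 ± 0.0874 FPKM in OGD/R and 5.28 ± 2.52 FPKM in control (SD, n = 3), with a log2 fold change of -2.34 ± 0.32 on the log2(FPKM + 1) scale (limma adjusted p = 0.000562). That scale understates the change of a gene this low: it came to -4.27 when 0.1 was added in place of 1, to -4.91 with 0.01 added, and to -4.78 in voom on the counted units. The OGD/R libraries held 2, 3 and 6 units of Lcn2, and the control libraries held 50, 129 and 148. Summed by group and scaled to depth, 11 units in OGD/R and 327 in control gave a 31.8-fold lower rate in OGD/R (exact 95% interval 17.5 to 64.3, counting error only). In control the spread between libraries was 47.8% of the mean where counting gives 9.58%, and in OGD/R it was 53.5% where counting gives 52.2%. Lcn2, ENSMUSG00000026822, spans chr2:32384633-32388252 of GRCm38, minus strand.

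**Figure D2:**
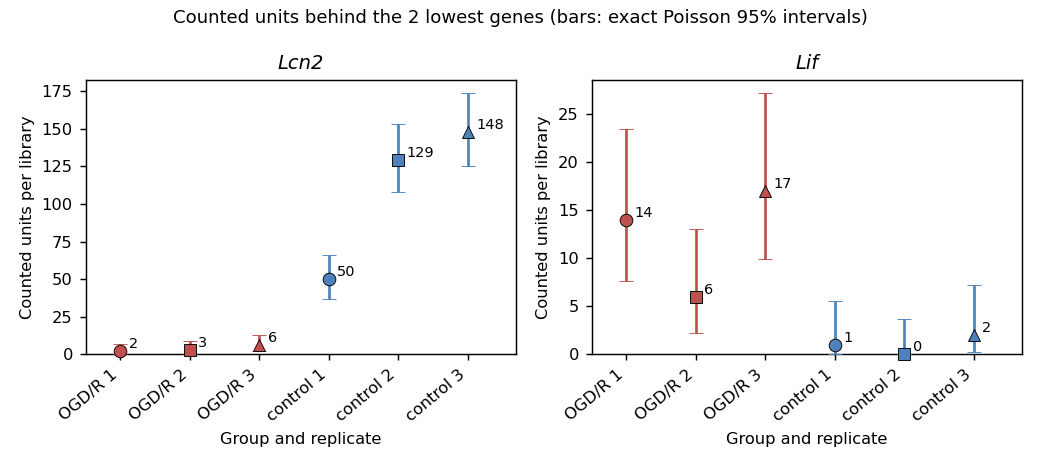
Counted units per library (linear axes from 0) of Lcn2 and Lif, in the OGD/R and control libraries, with exact Poisson 95% intervals as bars. Lcn2 falls to between 2 and 6 units in OGD/R, against 50 to 148 in control, and Lif has 6 to 17 units in OGD/R and 0 to 2 in control.

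Of 20 listed genes of iron handling and the acute phase, 3 were in the table, in which 50.7% of all tested genes fell. Among these 3, both of those tested fell. Besides Lcn2 this was Cp, the copper-containing ferroxidase ceruloplasmin, with 0.61, 0.57 and 1.00 FPKM in OGD/R and 2.10, 2.14 and 2.10 FPKM in control (log2 fold change -0.86 ± 0.13, limma adjusted p = 0.000809). Its control libraries lay closer together than those of Lcn2. Saa3, an acute-phase apolipoprotein of mice, was below the expression minimum. Of 10 markers of lymphocytes and granulocytes, cells in which Lcn2 is also known, 0 were among the genes of the table; their part in the result was not tested.

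Csf1, the growth factor of microglia, had 11.06, 11.16 and 11.89 FPKM in OGD/R and 21.27, 26.57 and 24.48 FPKM in control. The OGD/R libraries were close together and each was well below the lowest control library. The mean was 11.4 ± 0.453 FPKM in OGD/R and 24.1 ± 2.67 FPKM in control (SD, n = 3), a log2 fold change of -1.02 ± 0.11 (limma adjusted p = 0.000254, 95% interval -1.29 to -0.75). With 468 to 544 counted units per OGD/R library and 859 to 1157 per control library, Csf1 was the most deeply counted of the 5 genes, and its rate by units was 2.12-fold lower in OGD/R (exact 95% interval 1.99 to 2.26, counting error only). It was the only one of 13 listed colony-stimulating factors and receptors in the table; the others are not analysed here. Csf1, ENSMUSG00000014599, spans chr3:107741048-107760469 of GRCm38, minus strand.

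Tnfsf9 had 12.05, 11.71 and 19.14 FPKM in OGD/R and 26.51, 44.07 and 47.01 FPKM in control. OGD/R replicate 3 was the highest of its group and control replicate 1 the lowest of its group, and the groups came closest there. The mean was 14.3 ± 4.20 FPKM in OGD/R and 39.2 ± 11.1 FPKM in control (SD, n = 3), a log2 fold change of -1.39 ± 0.28 (limma adjusted p = 0.0028, 95% interval -2.05 to -0.72). The spread between libraries was 29.3% of the mean in OGD/R and 28.3% in control, where counting alone gives 8.01% and 5.01%. Per length it had the highest mean level of the 5 genes in both groups, followed by Csf1 and then Ptgs2. Within single libraries this order held in 6 of 6, with Tnfsf9 above Csf1 and Csf1 above Ptgs2. Across libraries of a group the ranges of neighbours overlapped: in OGD/R Tnfsf9 had 11.71 to 19.14 FPKM and Csf1 11.06 to 11.89 FPKM, and in control Tnfsf9 had 26.51 FPKM in its lowest library, where Csf1 had 26.57 FPKM in its highest. Ptgs2 and Csf1 overlapped across the control libraries but not across the OGD/R libraries, and Lcn2 and Lif were lowest in both groups. Tnfsf9, ENSMUSG00000035678, spans chr17:57105325-57107757 of GRCm38, plus strand.

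The receptor of Tnfsf9 changed in the opposite direction. Tnfrsf9, which encodes 4-1BB (CD137), had 23.01, 20.57 and 24.63 FPKM in OGD/R and 10.74, 9.76 and 12.19 FPKM in control, with a log2 fold change of 1.00 ± 0.12 (limma adjusted p = 0.000357). All 3 OGD/R libraries had more receptor than ligand mRNA per length, and all 3 control libraries had more ligand. The ratio of ligand to receptor was 0.524, 0.569 and 0.777 in OGD/R, against 2.47, 4.52 and 3.86 in control, with means of 0.623 ± 0.135 in OGD/R and 3.61 ± 1.04 in control (SD, n = 3; exact permutation p = 0.1, two-sided, the smallest possible, and 0.2 adjusted over the 2 ratios computed). Because each gene already separated the groups, in opposite directions, their ratio had to separate them too. The p-value of the ratio was thus fixed in advance and adds no evidence.

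**Figure D3:**
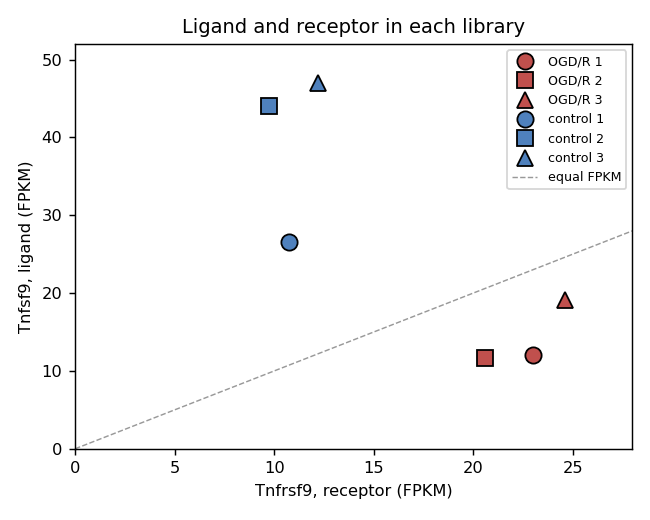
FPKM of the ligand gene Tnfsf9 (vertical, linear) against that of its receptor gene Tnfrsf9 (horizontal, linear) in each library, with a dashed line of equal FPKM. The 3 OGD/R libraries lie below the line, at ratios of 0.524 to 0.777, and the 3 control libraries above it, at 2.47 to 4.52.

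Tnfsf18 and Tnfsf12, the other ligands of the tumour necrosis factor superfamily in the table, fell too. Of 18 listed ligands 3 were in the table, Tnfsf9 included, and all 3 of those were tested and fell. Of all tested genes 50.7% fell and 46.6% rose. The ligands absent from the table are not analysed here. Tnfsf18, known as GITR ligand, averaged 1.02 ± 0.554 FPKM in OGD/R and 2.46 ± 0.530 FPKM in control (SD, n = 3), and Tnfsf12, known as TWEAK, averaged 1.13 ± 0.299 FPKM in OGD/R and 2.25 ± 0.545 FPKM in control. Of 36 listed receptors and adaptors 3 were tested, and 2 fell and 1 rose, to be read beside the same shares of all tested genes. Tnfrsf12a, the receptor of Tnfsf12, had 2.84, 2.82 and 6.71 FPKM in OGD/R and 7.45, 14.99 and 13.61 FPKM in control (log2 fold change -1.38 ± 0.36, limma adjusted p = 0.00884). Its order of libraries was much like that of Tnfsf9, with OGD/R replicate 3 high and control replicate 1 low. Cd40, the costimulatory receptor of antigen-presenting cells, fell with -0.87 ± 0.14.

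Lif was listed at 0.40, 0.16 and 0.45 FPKM in OGD/R and at 0.03, 0 and 0.06 FPKM in control. All OGD/R values were above all control values, and all 6 were low. At a mean of 0.337 ± 0.155 FPKM in OGD/R and 0.03 ± 0.03 FPKM in control (SD, n = 3) it did not reach the expression minimum and so had no test in the main fit. Without that minimum, limma gave a log2 fold change of 0.37 on the log2(FPKM + 1) scale (adjusted p = 0.00703), in a fit that called 96% of the 1228 genes. The libraries held 14, 6 and 17 units of Lif in OGD/R and 1, 0 and 2 in control. In control replicate 2 a count of 0 allows up to 3 units, or 0.0836 FPKM, as a one-sided limit, and the exact two-sided 95% interval reaches 3.69 units, or 0.103 FPKM. The summed rate of 37 units in OGD/R against 3 in control was 11.5 times as high (exact 95% interval 3.65 to 58.5, counting error only), so the size of the difference is known only within that range. Lif, ENSMUSG00000034394, spans chr11:4257557-4272514 of GRCm38, plus strand.

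Of 25 listed genes of the interleukin-6 family and its JAK-STAT3 signalling, Lif and Il6 were in the table, and neither passed the expression minimum. Il6, named after its values were seen, had 0.10, 0.34 and 0.10 FPKM in OGD/R and 0.97, 1.45 and 1.57 FPKM in control (exact permutation p = 0.1, two-sided, the smallest possible). Lif and Il6, both ligands that use gp130, thus lay on opposite sides, with all libraries separated in each.

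Over all 11 pathway lists, 276 genes were listed, 32 were in the table and 23 were tested, and of these 18 fell and 5 rose, where 50.7% of all tested genes fell and 46.6% rose; with the members left out it was 14 and 5 of 19. Their median log2 fold change was -0.86, or -0.76 with the members left out, beside -0.68 over the 852 tested genes. The median of the table was -0.12 over all 1228 genes without the expression minimum and -0.98 over the 852 with a pseudocount of 0.1. Among other cytokines Gdf15, a stress-induced member of the TGF-beta superfamily, averaged 7.77 ± 2.53 FPKM in OGD/R and 28.9 ± 4.56 FPKM in control (SD, n = 3; log2 fold change -1.80 ± 0.24, limma adjusted p = 0.000478). Pdgfb, a platelet-derived growth factor chain, fell with -0.76 ± 0.15. Il1a, the alarmin interleukin-1 alpha, rose to 2.55 ± 0.595 FPKM in OGD/R, against 0.877 ± 0.142 FPKM in control (log2 fold change 0.91 ± 0.16, limma adjusted p = 0.00151). Among cytokine receptors only Il18rap, a subunit of the interleukin-18 receptor, was tested, and it rose with 0.96 ± 0.12. Both tested regulators of NF-kB fell: Relb, a subunit of the non-canonical pathway, averaged 2.05 ± 0.295 FPKM in OGD/R and 4.10 ± 0.430 FPKM in control, and Nfkbiz, a nuclear inhibitor-family protein needed for Lcn2 and Il6 induction in mouse macrophages, averaged 3.17 ± 0.702 FPKM in OGD/R and 6.91 ± 1.44 FPKM in control. Of 17 genes of cytokine mRNA decay, 0 were in the table. Il1b, Il23a, Il1r1, Il1r2 and Il17rc were in the table below the expression minimum. The OGD/R values of Il1b and Il1r2 all lay above their control values, and those of Il23a, Il1r1 and Il17rc all lay below.

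**Figure D4:**
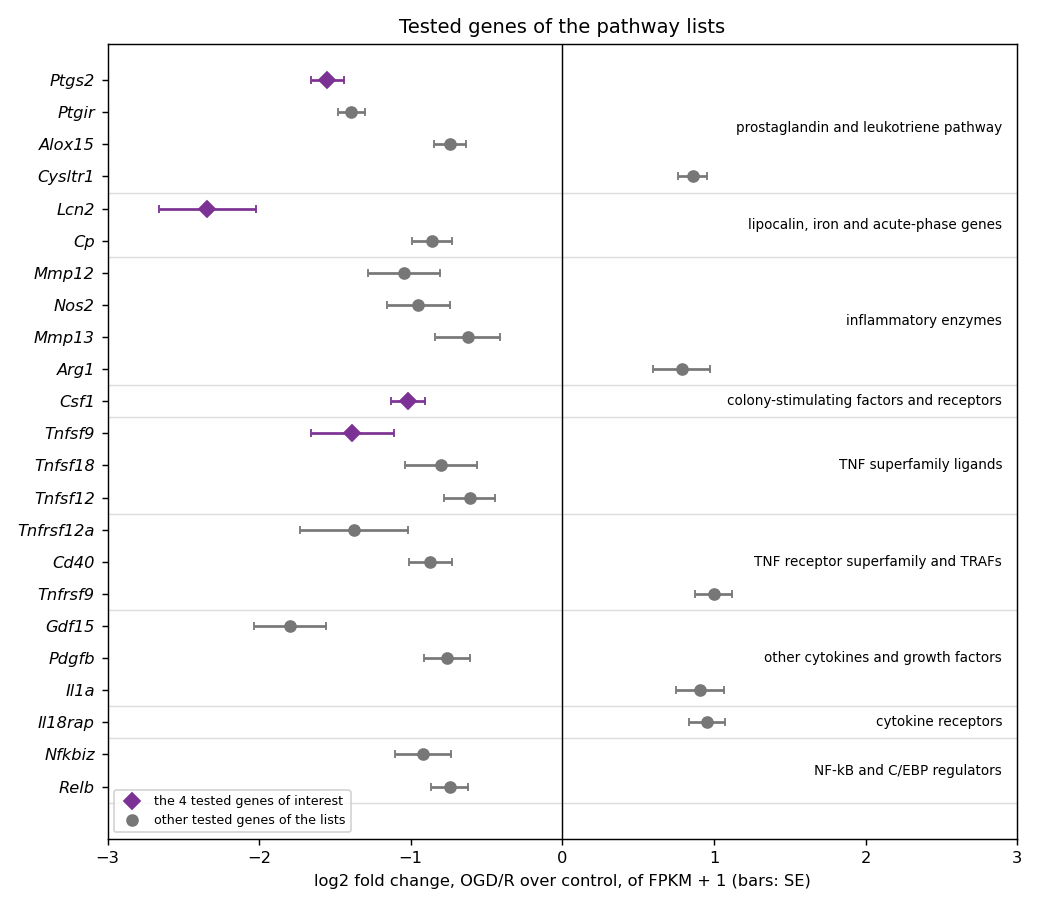
Log2 fold change (OGD/R over control, of FPKM + 1) with its SE for the 23 tested genes of the pathway lists, grouped by list, with the tested members as diamonds. Of the 23 genes, 18 lie below 0 and 5 above it: Cysltr1, Arg1, Tnfrsf9, Il1a and Il18rap.

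The replicates of each group differed in a recurring way. Control replicate 1 was the lowest control library in 3 of the 5 members (Lcn2, Csf1 and Tnfsf9), in 14 of the 23 pathway genes with the lower mean in OGD/R and in 57.9% of all 623 such genes of the table. OGD/R replicate 3 was the highest OGD/R library in 4 of 5 members, in 17 of 23 such pathway genes and in 48.8% of all 623. Without control replicate 1 the log2 fold changes of Lcn2, Csf1 and Tnfsf9 were -2.72, -1.10 and -1.64. Leaving out the lowest control had to enlarge each fall, so these values do not test whether it holds. Without the highest control library the falls were smaller. They were -2.09 for Lcn2 and -1.24 for Tnfsf9 without control replicate 3, and -0.95 for Csf1 without control replicate 2. As the groups do not overlap in these genes, no such omission could reverse the direction.

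Genes with the most similar profile were sought among 636 tested genes with a standard symbol, by the root mean square difference of centred log2(FPKM + 1) values over the 6 libraries. Among the closest to Csf1 were Fcgr1, the high-affinity IgG receptor, at a difference of 0.0463, and Rin1 at 0.0570. Fcgr1 had 23.52, 24.63 and 24.47 FPKM in OGD/R and 46.51, 53.5 and 53.02 FPKM in control. Closest to Ptgs2 were the aquaglyceroporin Aqp9 at 0.103, the phosphate carrier Slc20a1 at 0.109 and the zinc finger gene Zfp324 at 0.113. Closest to Tnfsf9 were Gbp8 at 0.106, Serinc4 at 0.108 and the cholesterol acyltransferase Soat2 at 0.124. Closest to Lcn2 were Manf, a secreted factor of endoplasmic reticulum stress, at 0.128, the chemokine Ccl7 at 0.201 and the endoplasmic reticulum protein Selenos at 0.225, but with a pseudocount of 0.1 none of these 3 remained among its nearest 3.

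Some neighbours on the chromosome were in the table as well, within 500 kb. Ptgs2os2, a transcript 50.8 kb away from Ptgs2, had 4.64, 3.93 and 6.68 FPKM in OGD/R and 2.39, 2.29 and 2.33 FPKM in control. Its log2 fold change was 0.84 ± 0.17 (limma adjusted p = 0.00326), while Ptgs2 itself fell. Gatsl3, 35.1 kb from Lif, averaged 6.01 FPKM in OGD/R and 2.54 FPKM in control, and Rnf215, 116.4 kb from Lif, averaged 1.96 FPKM in OGD/R and 3.93 FPKM in control. Alkbh7 lies 106 kb from Tnfsf9 and Cfap157 lies 389.1 kb from Lcn2; both fell, with log2 fold changes of -0.92 and -1.43. Hmcn1, 454.3 kb from Ptgs2, was below the expression minimum. For Csf1 no neighbour in that window was in the table.

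The promoters of the members are shown because 3 of the 4 members with an annotated promoter fell together and Lif did not. Sequences are from RefSeq on GRCm38.p6, 250 bases before to 30 bases after the annotated start, 5′ to 3′ on the strand of the gene, with motif matches in capitals. Of the 5 genes 4 matched a promoter; Tnfsf9 is named only.
Ptgs2, chr1:150099781-150100060, plus strand: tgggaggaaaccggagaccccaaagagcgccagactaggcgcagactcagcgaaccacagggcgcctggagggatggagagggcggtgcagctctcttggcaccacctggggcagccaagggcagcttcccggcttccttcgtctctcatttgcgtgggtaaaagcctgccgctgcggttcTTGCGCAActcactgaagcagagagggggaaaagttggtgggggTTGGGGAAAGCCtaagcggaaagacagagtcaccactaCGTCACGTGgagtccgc
Lcn2, chr2:32387710-32387989, minus strand: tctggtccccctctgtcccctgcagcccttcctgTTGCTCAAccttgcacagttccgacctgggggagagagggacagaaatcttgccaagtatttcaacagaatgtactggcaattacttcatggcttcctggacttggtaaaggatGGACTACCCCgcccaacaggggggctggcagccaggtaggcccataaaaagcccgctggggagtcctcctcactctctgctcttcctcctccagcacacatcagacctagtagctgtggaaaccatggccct
Csf1, chr3:107760440-107760719, minus strand: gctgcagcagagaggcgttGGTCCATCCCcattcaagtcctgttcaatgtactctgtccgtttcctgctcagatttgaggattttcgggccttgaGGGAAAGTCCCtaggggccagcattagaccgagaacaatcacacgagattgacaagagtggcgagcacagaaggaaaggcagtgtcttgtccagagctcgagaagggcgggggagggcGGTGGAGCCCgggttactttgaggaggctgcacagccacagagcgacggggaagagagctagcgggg
Lif, chr11:4257318-4257597, plus strand: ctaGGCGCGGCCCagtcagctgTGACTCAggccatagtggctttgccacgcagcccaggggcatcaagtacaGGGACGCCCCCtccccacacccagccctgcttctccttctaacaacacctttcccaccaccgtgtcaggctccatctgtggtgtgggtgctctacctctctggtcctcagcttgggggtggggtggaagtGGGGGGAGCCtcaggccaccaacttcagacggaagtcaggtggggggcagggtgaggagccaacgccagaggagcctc
The letters searched on both strands were GGG and CC with any 5 bases between them for kB, TTGCNNNAA and the looser TTNNGNAA for C/EBP, TGACG for the core of a cyclic AMP response element, TGANTCA for AP-1, CACGTG for an E-box and TATAAA for a TATA box. The kB letters were found in all 4 promoters and in 48.9% of 32851 promoter windows of the same length, so they are common. The stricter kB form with a T as the middle base, in 17.4% of promoters, was found only in Csf1, at bases -154 to -145. The looser C/EBP letters were found in Ptgs2, at -69 to -62 and at -25 to -18, and in Lcn2, at -216 to -209, against 39.3% of promoters. The form TTGCNNNAA, in 9.07% of promoters, was in none of the 4. It sets TTGC and AA further apart than the matches TTGCGCAA in Ptgs2, at -69 to -62, and TTGCTCAA in Lcn2. Its absence therefore does not bear on such matches, which were counted only under the looser letters. In Ptgs2 the looser match at -25 to -18 overlaps the kB match at -23 to -14. Ptgs2 alone held the cyclic AMP core, at bases 14 to 18 after the annotated start and in 19.9% of promoters, and the E-box, at 17 to 22 and in 6.79% of promoters, and these overlap. Lif alone held AP-1 letters, at -228 to -222 and in 7.46% of promoters. TATAAA, in 13.1% of promoters, was in none of the 4 windows. All positions count from the annotated start, and where transcription starts in these cells was not tested. A match of letters is a description and does not show that a factor binds.

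**Figure D5:**
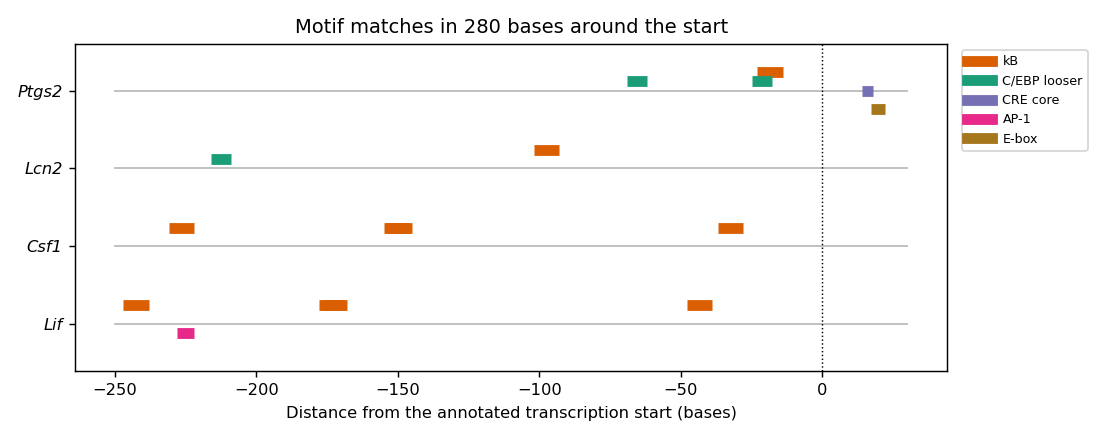
Positions of motif matches on either strand from 250 bases before to 30 bases after the annotated start (distance in bases, linear) in the promoters of Ptgs2, Lcn2, Csf1 and Lif, with a dotted line at the start. The kB letters occur in all 4, the looser C/EBP letters in Ptgs2 and Lcn2, and the cyclic AMP core and E-box in Ptgs2 after the start.

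The 3′ UTRs, the untranslated ends of the mRNAs, are shown for their AU-rich pentamers, written ATTTA in DNA letters and known to shorten the life of cytokine mRNAs. Below are 30-base windows with the most pentamers in each, from GENCODE M21 transcripts, with ATTTA in capitals.
Ptgs2 3′ UTR: ATTTATTTATTTAtgtgaagaATTTAattt
Lif 3′ UTR: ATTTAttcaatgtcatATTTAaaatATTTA
Csf1 3′ UTR: aaggtcATTTAaatatctATTTAaaaaata
Tnfsf9 3′ UTR: actggacttggtATTTAttctgagcatagc
Ptgs2 had 14 pentamers in a 3′ UTR of 2445 nt, a number reached by 3.04% of 21097 coding genes. Lif had 7 in 3180 nt, reached by 13.6% of genes, and Csf1 had 4 in 2111 nt, reached by 28.4%. Tnfsf9 had 2 in only 253 nt, a number reached by 47.6%, and Lcn2 had 0 in 232 nt. By density the order differed. The 7.91 per kb of Tnfsf9 is reached by 1.94% of genes and the 5.73 of Ptgs2 by 4.56%. The 2.20 of Lif is reached by 30.4% and the 1.90 of Csf1 by 35.6%. The longer nonamer TTATTTATT was in the 3′ UTRs of Ptgs2 and Lif, and in 7.43% of the 861 coding genes of the table with a 3′ UTR.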

How the data were processed

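RNA of Bv2 cells was sequenced in 3 OGD/R and 3 control libraries from 1 ug of RNA each, with 150 nt paired reads, per the labels' protocols. The deposited values are FPKM to 2 decimals, per the file headers, with each sample in its own column of a single table; the build is GRCm38, per the submitters' processing notes. How reads were aligned and counted, with which annotation, and how genes were chosen were not given in the sources used here. Gene IDs were matched to GENCODE M21 (1227 of 1228), and 2 names turned into dates were restored. Library sizes in counted units were sought at which values under 15 units became whole (within rounding error plus 0.03 units) given exon lengths: 97.3% to 100% of values were whole, against 27.1% to 32.0% at other sizes while chance gives 16.4% to 17.4%. A unit may be a read or a pair. As strand use in counting is unknown here, overlapping and antisense genes are uncertain.

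The test was limma 3.58.1 in R 4.3.3 (two-sided; eBayes with a mean trend, no factor other than group) on log2(FPKM + 1) for genes with a mean of at least 1 FPKM, with Benjamini-Hochberg adjustment over all 852 and a threshold of 0.05. It was tested on simulated data. Single values had exact permutation tests over libraries. Named genes are the 5 members and up to 4 genes past the threshold with the largest change in each of 11 pathway lists. The 3 genes most like each tested member and neighbours within 500 kb are named too. Listed pathway genes below the minimum are named, some with their direction, and apart from Lif only Il6 has its values given. Some genes that this rule takes are not reported here. Members and lists were chosen with earlier results of these data known. Alternatives covered pseudocounts of 0.1 and 0.01, no minimum and one of 5 FPKM, 2 scalings, the eBayes settings, a replicate block, voom on recovered units and each library left out. Other steps used Python 3.11.15, pandas 2.3.3, numpy 2.4.6, scipy 1.17.1 and matplotlib 3.10.9.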

Additional observations from a re-analysis of the deposited data

How the results depend on the processing

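Ptgs2, Lcn2, Csf1 and Tnfsf9 kept their direction and their side of the threshold in every alternative that could test them. A minimum of 5 FPKM leaves Lcn2 out. The groups do not overlap in these 4 genes, so no pseudocount or omitted library could reverse the direction. With 97.3% of tested genes called in the main fit, keeping the call is not particular to them. Without any 1 library the log2 fold change was -1.63 to -1.49 for Ptgs2, -2.72 to -2.09 for Lcn2, -1.10 to -0.95 for Csf1 and -1.64 to -1.24 for Tnfsf9, with a highest limma adjusted p of 0.0127 (Tnfsf9 without OGD/R replicate 1). Lif differed by 0.37 on the log2(FPKM + 1) scale, by 0.31 to 0.47 without any 1 library, and by 1.70 and 3.39 with pseudocounts of 0.1 and 0.01, which shrink a low gene less. Members called were 4 lower and 0 higher, and 1 higher with no minimum, where Lif enters. Pathway genes called were 18 lower and 5 higher; with a minimum of 5 FPKM, where fewer genes are tested, they were 7 and 1, and with no minimum 23 and 9. Of all tested genes 432 were called lower and 397 higher, 221 and 188 with a minimum of 5 FPKM, and 589 and 590 with no minimum. Same-numbered libraries deviated from their group means with correlations of 0.428, -0.349 and 0.375. Libraries of different numbers had correlations from -0.628 to 0.479. With 3 libraries per group these values can neither show nor exclude a pairing by number. With the replicate block 440 genes were called lower and 395 higher, Ptgs2 had a log2 fold change of -1.55 (limma adjusted p = 0.000934) and all 4 members kept their call. Depth limits Lif and, in OGD/R, Lcn2, with at most 17 and 6 counted units per library. Intervals and floors cover counting error only.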
